A study of Mus musculus with 9 samples.

Results

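The cells described here are Flt3-positive progenitors of mouse bone marrow that carried transcripts of a chemokine cluster but none of the early lymphoid genes Dntt, Il7r and Ly6d. They were selected on their own counts of these genes, in unique molecular identifiers (UMIs, each standing for 1 captured transcript), among sorted Lin- cKit+ Sca1+ (LSK) cells. A barcode was kept at 1000 to 40000 UMIs, at most 6000 genes and at most 10% mitochondrial UMIs. It entered the set with at least 1 Flt3 UMI, no UMI of Dntt, Il7r or Ly6d, and a UMI of at least 2 of the 4 genes Ccl3, Ccl4, Ccl9 and Wfdc17. Of 15975 LSK cells, 1667 passed (10.4%), and they are called gated cells below. The same gate with at most 1 of the 4 genes gave 1747 cells, called chemokine-low. Flt3-positive cells with Dntt but without Il7r and Ly6d numbered 3425 (Dntt-positive), and cells with Procr but no Flt3, which stand for the stem cell end of the LSK gate, numbered 4976 (Procr-positive).

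All mice were C57BL/6. Young mice were 10 to 12 weeks old and aged mice were over 80 weeks old, and both received the cyclodextrin vehicle only. The third group, called CASIN, was aged mice that received CASIN, an inhibitor of the small GTPase Cdc42, at 25 mg/kg by intraperitoneal injection every 24 h, with 4 injections in all, and marrow was taken on day 5. Each group had 3 libraries, sequenced in 2 batches: young 1 and 2, aged 1, and CASIN 1 and 2 in batch 1, and young 3, aged 2 and 3, and CASIN 3 in batch 2. The labels do not say whether a library came from 1 mouse or several, so p-values measure the spread between these libraries. The cells had been frozen viably and were thawed before capture.

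The 9 libraries held 19237354 to 42780953 UMIs. Gated cells numbered 346, 363 and 135 in the young libraries, 102, 172 and 145 in the aged libraries, and 121, 175 and 108 in the CASIN libraries. They summed to between 1413928 and 5352465 UMIs per library, with a median of 9803 to 16203 UMIs per cell. The batches stood apart. Barcodes over the mitochondrial limit made up 10.96% to 40.6% of a library in batch 1 and 59.1% to 66.8% in batch 2. Cxcr4, the receptor for Cxcl12, was at 3.54 to 11.4 counts per 1000000 UMIs (CPM) in the gated cells of the batch 1 libraries and at 126 to 441 CPM in those of batch 2. Every model of gene levels between conditions therefore carried a batch term. Shares of cells were compared without one, and within-batch values are given beside them and beside the leading genes. Of the kept cells, 155 of 15975 shared a barcode with a cell of another library, and 7 of the 1667 gated cells did. The doublet caller marked 0.451% of LSK cells, too few to be informative. The highest 5% of doublet scores over all LSK cells held 4.86% of the gated cells.

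Flt3 is the receptor tyrosine kinase that is switched on as stem cells give way to multipotent and lymphoid-primed progenitors, and Dntt, Il7r and Ly6d follow as progenitors commit to lymphoid fates. Ccl3 and Ccl4 are inflammatory chemokines that act on receptors of the CC family, and Ccl9 is a ligand of Ccr1. Chemokines of this family are best known as products of activated myeloid cells, where they draw in monocytes, T cells and osteoclast precursors, and Ccl3 is also known as an inhibitor of stem cell proliferation. Wfdc17 is a small secreted protein with a whey acidic protein (WAP) domain.

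The 4 genes lie in 1 stretch of chromosome 11 (GRCm38) of 133.35 kb. Ccl9 is at chr11:83572919-83578636 and Ccl3 at chr11:83647844-83649355, both on the minus strand. Ccl4 is at chr11:83662584-83664683 and Wfdc17 at chr11:83703991-83706268, both on the plus strand. Flt3 is on another chromosome, at chr5:147330741-147400489 on the minus strand. RefSeq windows (GRCm38.p6) were found for 3 of the 4 clustered genes. The 150 bases before the outermost annotated start are shown for them (the RefSeq start for Ccl3, the GENCODE start for Wfdc17, and the start that both annotations give for Ccl9), because the rule uses these genes together. They read 5′ to 3′ on the strand of the gene, and capitals mark matches to the motifs listed after them. The windows are chr11:83578637-83578786 on the minus strand, chr11:83649379-83649528 on the minus strand and chr11:83703841-83703990 on the plus strand.
Ccl9: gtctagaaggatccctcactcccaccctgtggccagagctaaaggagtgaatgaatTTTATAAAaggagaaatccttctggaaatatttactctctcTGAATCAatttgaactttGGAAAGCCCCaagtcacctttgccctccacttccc
Ccl3: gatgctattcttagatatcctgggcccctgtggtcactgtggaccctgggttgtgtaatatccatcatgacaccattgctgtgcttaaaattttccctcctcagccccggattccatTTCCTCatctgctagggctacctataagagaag
Wfdc17: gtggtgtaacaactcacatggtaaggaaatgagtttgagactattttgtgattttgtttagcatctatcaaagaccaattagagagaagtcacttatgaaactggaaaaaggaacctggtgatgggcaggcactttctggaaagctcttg
Both strands were searched for TATAAA, the core promoter element known as the TATA box, and for GAGGAA, the core that the myeloid factor Spi1 binds. The other motifs were TGANTCA, the site of AP-1 factors such as Fos with Jun, and GGGNNNNNCC, a loose pattern for members of the NF-kB family. The Ccl9 window held TATAAA on both strands in overlapping positions, 1 TGANTCA and 1 NF-kB pattern, and the Ccl3 window held 1 GAGGAA. The Wfdc17 window held none of these letters. Among 32851 RefSeq windows of the same length, 7.57% held TATAAA, 14.5% GAGGAA, 4.24% TGANTCA and 35.4% the NF-kB pattern, so the matches are a description of these windows only.

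The rule fixed which genes were high in the gated cells, so their levels are given without a test. Exactly 2 of the 4 genes were detected in 835 gated cells (50.1%), 3 in 610 (36.6%) and all 4 in 222 (13.3%). The commonest combinations were Ccl3 with Ccl4 and Wfdc17 (320 cells), Ccl3 with Ccl4 (246 cells) and Ccl4 with Wfdc17 (226 cells). Ccl4 had a UMI in 79.5% of gated cells, Wfdc17 in 70.7%, Ccl3 in 69.8% and Ccl9 in 43.3%. The transcripts were concentrated in few cells: the 10% of gated cells with the most UMIs of a gene held 53.1% of all Ccl3 UMIs, 56.0% of Ccl4, 52.0% of Ccl9 and 53.9% of Wfdc17. A single cell held up to 86 UMIs of Ccl3, 141 of Ccl4, 16 of Ccl9 and 85 of Wfdc17. Flt3, which the rule asks of every gated cell, was spread more evenly, with a highest count of 10 UMIs.

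Free RNA gives stray UMIs in droplets, so the Procr-positive cells serve as a reference that lacks Flt3. Their libraries had median depths of 8774 to 12522 UMIs per cell, and they held a UMI of Ccl3 in 10.9%, of Ccl4 in 35.0%, of Ccl9 in 6.23% and of Wfdc17 in 12.4% of cells. In chemokine-low cells the shares were 8.30% for Ccl3, 27.0% for Ccl4, 4.92% for Ccl9 and 12.6% for Wfdc17, which the limit of at most 1 gene per cell holds down. Dntt-positive cells, which the rule leaves out, held the same 4 genes in 70.5%, 74.5%, 45.2% and 77.9% of cells.

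Over the 9 libraries the gated cells summed to 368 ± 155 CPM of Ccl3 (SD, n = 9; 185 to 644), 422 ± 175 of Ccl4 (161 to 680), 68.3 ± 25.7 of Ccl9 (29.9 to 107) and 229 ± 73.9 of Wfdc17 (134 to 348). Flt3, the only one of the 5 that the rule asks of every gated cell, varied least, at 145 ± 16.0 CPM (118 to 168). Ccl3 was at 349, 598 and 357 CPM in the young libraries, 353, 264 and 239 in the aged libraries, and 321, 644 and 185 in the CASIN libraries. The highest and the lowest Ccl3 level were thus both in the CASIN group. Ccl4 was at 305, 442 and 552 CPM in young, 303, 557 and 680 in aged, and 161, 549 and 248 in CASIN gated cells. The groups overlapped for each of the 4 genes.

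**Figure D1:**
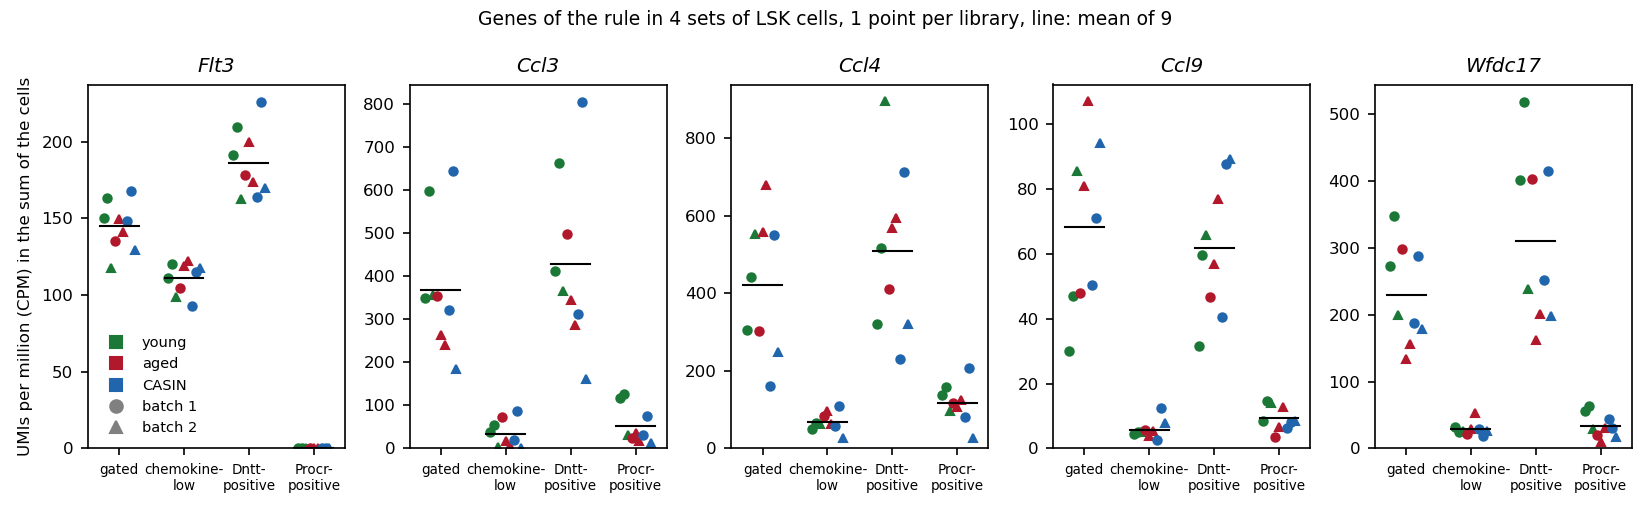
Level of the 5 genes of the rule (CPM, vertical axes) in the summed gated, chemokine-low, Dntt-positive and Procr-positive cells, with 1 point per library, colour for the group, shape for the sequencing batch and a line at the mean of 9 libraries. Ccl3, Ccl4 and Wfdc17 averaged 368, 422 and 229 CPM in gated and 428, 508 and 310 CPM in Dntt-positive cells, while Procr-positive cells have no Flt3 by construction and averaged 52.0, 117 and 33.5 CPM of them.

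The label calls these cells progenitors, and apart from the genes of the rule they carried progenitor genes. Plac8, Cd34 and Satb1, which mark Flt3-positive multipotent progenitors, were at 706 ± 150, 379 ± 63.6 and 69.3 ± 17.4 CPM (SD, n = 9). Markers of other cell types were unequal within each list. Lineage-positive cells had been depleted before the sort. In all gated cells together, the macrophage genes Adgre1, C1qa and Mrc1 had 5, 2 and 0 UMIs, while Ms4a6c, Cd68, Ccr2 and Csf1r of the same list had 810, 254, 77 and 41. The B cell genes Cd79a, Ms4a1 and Pax5 had 5, 0 and 0 UMIs, and the plasmacytoid dendritic cell gene Siglech had 1. Among the T and NK cell genes, Cd3e and Ncr1 had 1 and 0 UMIs, while Ccl5, Gzmb and Trac had 322, 54 and 29. A count of 0 allows up to 0.180% of the gated cells to hold a UMI, by counting error alone, and does not limit the share of cells that express the gene. The 8 neutrophil genes summed to 4.84 ± 1.6 CPM, led by S100a8 at 1.83 CPM. The marker lists with a higher sum were each led by 1 gene: macrophage and monocyte genes at 276 CPM by Lyz2 (221 CPM), T and NK cell genes at 186 CPM by Nkg7 (167 CPM), and dendritic cell genes at 191 CPM by Bst2 (183 CPM). B cell genes summed to 26.5 CPM, of which Cd79b gave 24.7. The erythroid list was at 42.8 CPM, led by Hbb-bt at 40.7, the basophil and mast cell list at 59.7, led by Gata2 at 39.9, the megakaryocyte list at 48.2, led by Pf4 at 19.5, and the stromal and endothelial list at 32.6, led by Pecam1 at 26.4 with Cdh5 at 0 UMIs.

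Each of the 4 clustered genes was detected, on average, in a larger share of the cells that held another of them than of those that did not. For this comparison all LSK cells were thinned to the same depth of 4000 UMIs and the Flt3-positive Dntt-negative cells were then chosen again from the thinned counts, which gave 2177 cells. A cell whose Dntt UMIs were lost in thinning can be among them, and this holds for every thinned value below. Wfdc17 had a UMI in 51.0% ± 5.86 of the cells with Ccl3 and in 24.9% ± 2.09 of those without it (SD, n = 9), higher in 9 of 9 libraries. Ccl3 was found in 40.5% ± 12.3 of cells with Ccl4 and 25.1% ± 12.3 of cells without it, higher in 8 of 9 libraries. Ccl9, the least detected of the 4, was found in 20.6% ± 7.48 of cells with Ccl3 and 10.7% ± 3.44 of those without, again higher in 9 of 9. The Ccl4 and Wfdc17 pair was looser: Wfdc17 was in 39.7% ± 7.40 of cells with Ccl4 and 29.0% ± 5.53 of cells without, higher in 7 of 9 libraries. These shares are descriptions, since all 4 genes belong to the rule. Chemokine genes of 1 cluster are similar in sequence, so the authors' counting may have dropped reads that fit several of them.

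Detection of at least 2 of the 4 genes was more frequent in Flt3-positive cells that had turned on Dntt, the enzyme that adds nucleotides at antigen receptor joints. In cells thinned to 4000 UMIs, 33.7% ± 8.37 of Flt3-positive Dntt-negative cells and 65.0% ± 12.7 of Dntt-positive cells held at least 2 of them (SD, n = 9). The share was lower in Dntt-negative cells in 9 of 9 libraries, by 15.1 to 45.8 percentage points, with a mean difference of -31.3 ± 8.72. Dntt and the 4 genes all belong to the rule, so this is a description without a test. Without thinning the shares were 48.0% and 84.2%. Procr-positive cells without Flt3 reached 12.1% ± 7.12 with thinning and 17.7% ± 10.3 without it.

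**Figure D2:**
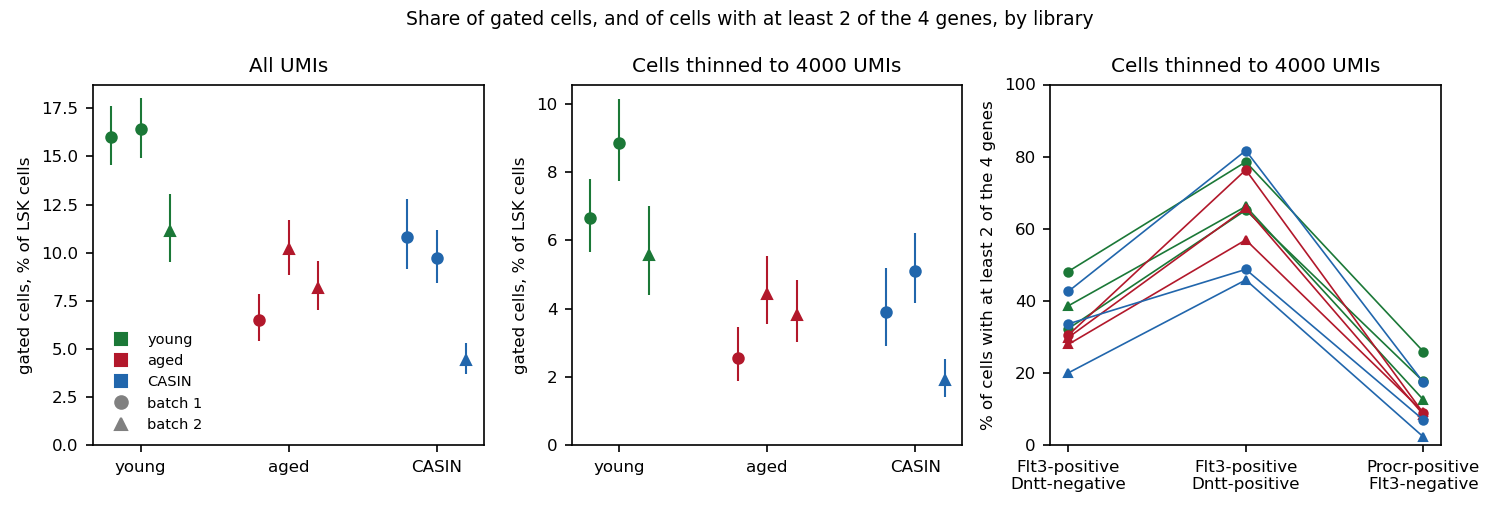
Left and centre, gated cells as a percentage of the LSK cells of each library (vertical axes; bars are 95% Wilson intervals, counting error only), with all UMIs and after thinning each cell to 4000 UMIs. Right, the percentage of cells with at least 2 of the 4 genes after thinning in 3 sets of cells, with lines joining the sets of 1 library: each of the 9 lines peaks in Dntt-positive cells, at 45.8% to 81.7%.

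Next to their chemokine-low neighbours, the gated cells carried more transcripts of lymphoid-primed progenitor and early myeloid genes and fewer of stem cell and megakaryocyte genes. Among genes with a mean of at least 20 CPM, the increases in Ctsg and Mpo, which encode granule proteins of the neutrophil lineage, and the decreases in Nupr1 and Apoe were the strongest. The cells of each library were split by the 4 genes and summed, so the test asks how the remaining genes differ along that split in 9 libraries (edgeR quasi-likelihood test with a library block, Benjamini-Hochberg adjusted over all genes tested). Of 9797 genes tested, 500 were higher in gated cells (5.1%) and 435 lower (4.44%), and the median over all genes was 0.0026 on the log2 scale. With every cell thinned to 4000 UMIs, which moves cells between the sets, the count fell from 935 to 150, and DESeq2 called 546. Flt3 rested on 1 UMI in 74.2% and 63.2% of the cells with 0 and 1 of the 4 genes and in 50.1%, 37.5% and 36.0% of those with 2, 3 and 4. No background share of Flt3 could be set, since the Procr-positive cells lack it by construction, and the part of stray Flt3 UMIs in the differences was not tested.

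Flt3-positive progenitor genes rose almost as a block: 18 of 19 passed and none fell, with a median log2 fold change of 0.66. Satb1, a chromatin organiser needed for lymphoid priming, ranged from 44.6 to 104 CPM in gated cells (median 63.0) and from 19.5 to 43.7 in chemokine-low cells (median 31.7), so the 2 sets did not overlap. Its log2 fold change was 1.12 (SE 0.07, edgeR adjusted p = 1.07e-10), higher in 9 of 9 libraries. Plac8 was higher by 0.91 (706 against 391 CPM), Il12a by 0.96, Cd69, an early activation receptor, by 1.08, and the surface proteins Emb, Cd52 and Cd53 by 0.77, 0.74 and 0.58. Cd27 was the member that did not pass, at 0.12.

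Of 13 myeloid genes tested, 9 rose and none fell, with a median of 0.64. Ctsg (cathepsin G) was at 58.7 to 262 CPM in gated cells (median 130) and 0 to 44.0 in chemokine-low cells (median 16.1), without overlap, a log2 fold change of 2.94 (SE 0.25, edgeR adjusted p = 8.57e-09). Mpo (myeloperoxidase) was at 85.9 to 453 CPM (median 184) against 26.0 to 105 (median 48.4), a change of 1.95 (SE 0.17). The ranges of Mpo touched, but it was higher in gated cells in 9 of 9 libraries. Cebpa, the transcription factor that starts the granulocyte and monocyte program, was higher by 0.90 and Prtn3, another granule protease, by 0.50. Lyz2, at 221 and 227 CPM, was unequal by only 0.01 and did not pass.

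Innate sensing genes followed in part, with 7 of 21 higher and 1 lower (median 0.16). Ncf1, a subunit of the phagocyte oxidase, was higher by 1.33, the adaptor Tyrobp by 1.01, Tlr2, a receptor for bacterial lipoproteins, by 1.36, and the protease Ctss by 0.66. Of 17 NF-kB pathway and feedback genes, 5 were higher and none lower (median 0.14), among them Tnf (0.88), the inhibitor Nfkbia (0.43), Nfkbiz (0.48) and Rel (0.35). Of 18 other chemokine and WAP genes, none of them used by the rule, 6 passed the filter on low counts. Among these, 4 were higher: Slpi by 2.61, Wfdc18 by 1.95, Cxcl10 by 1.39 and Cxcl2 by 1.01. Slpi had only 9, 20 and 12 UMIs in the young, aged and CASIN chemokine-low cells, so it entered the test through the gated cells. Its fold change is imprecise, and this count is no support for a direction of the list. Slpi and Wfdc18 are WAP domain proteins and Cxcl2 attracts neutrophils. Wfdc18 resembles Wfdc17 in sequence, and reads could be split between them. Of the 2 chemokine receptors tested, Ccrl2 was higher by 0.45 and Cxcr4 stood at -0.14 without passing.

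Stem cell genes went the other way, with 12 of 16 lower, 1 higher and a median of -0.62. Nupr1, a stress-response regulator enriched in stem cells, was at 0.65 to 54.5 CPM in gated cells (median 17.4) and 8.24 to 152 in chemokine-low cells (median 46.1), lower in 9 of 9 libraries by 1.80 on the log2 scale (SE 0.14, edgeR adjusted p = 9.72e-10). Esam, an adhesion molecule of stem cells, had a log2 fold change of -1.09, Gata2 of -0.85 and Pdzk1ip1 of -0.74. The stem cell regulators Procr and Hlf, at -0.17 and -0.13, did not pass. Ifitm1, the most abundant member, was the one that rose, by 0.12. Megakaryocyte and erythroid genes were lower in 6 of 7 (median -0.53): Apoe was at 50.8 to 186 CPM in gated and 146 to 397 in chemokine-low cells (-1.44, SE 0.10), Pf4, a platelet granule chemokine, at -1.05 and Itga2b, the platelet integrin, at -0.79.

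Lymphoid genes were mixed, with 3 of 8 higher (Ighm 0.83, Lck 0.66, Ikzf1 0.31) and 1 lower (Gata3, -0.56). G2 and M phase genes were lower in 8 of 20 (median -0.34; Ccnb2 -0.67, Cenpf -0.51, Mki67 -0.48), whereas S phase genes had 1 of 20 higher, near the share of all genes (Mcm2, 0.27, which lost the call in 13 of 20 alternatives). MHC class II genes were higher in 2 of 8 and lower in 2, with H2-Eb1 at -0.47 and H2-Aa at -0.35. H2-Aa lost its call in 7 of 20 alternatives, DESeq2 among them. MHC class I genes were higher in 1 of 10 and lower in 2. Immediate early and handling genes, which respond to tissue processing, had 5 of 23 higher and 2 lower (median 0.12). Cytokine feedback genes had 4 of 17 higher (Pim1, 0.44) and 2 lower (Socs2, -1.13). Interferon response genes had 1 of 16 higher (Irf7, 0.56), near the share of all genes. Genes that rise in aged stem cells had 1 of 9 higher (Dhrs3, 0.85) and 5 lower. Cdc42, the target of CASIN, stood at 377 and 386 CPM (0.02, SE 0.04) and did not pass, while 3 of the 14 genes of its list were higher: the inhibitor Arhgdib (0.32), the GTPase Rac2 (0.27) and the effector Cdc42ep3 (0.20, a call lost in 15 of 20 alternatives, DESeq2 among them).

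**Figure D3:**
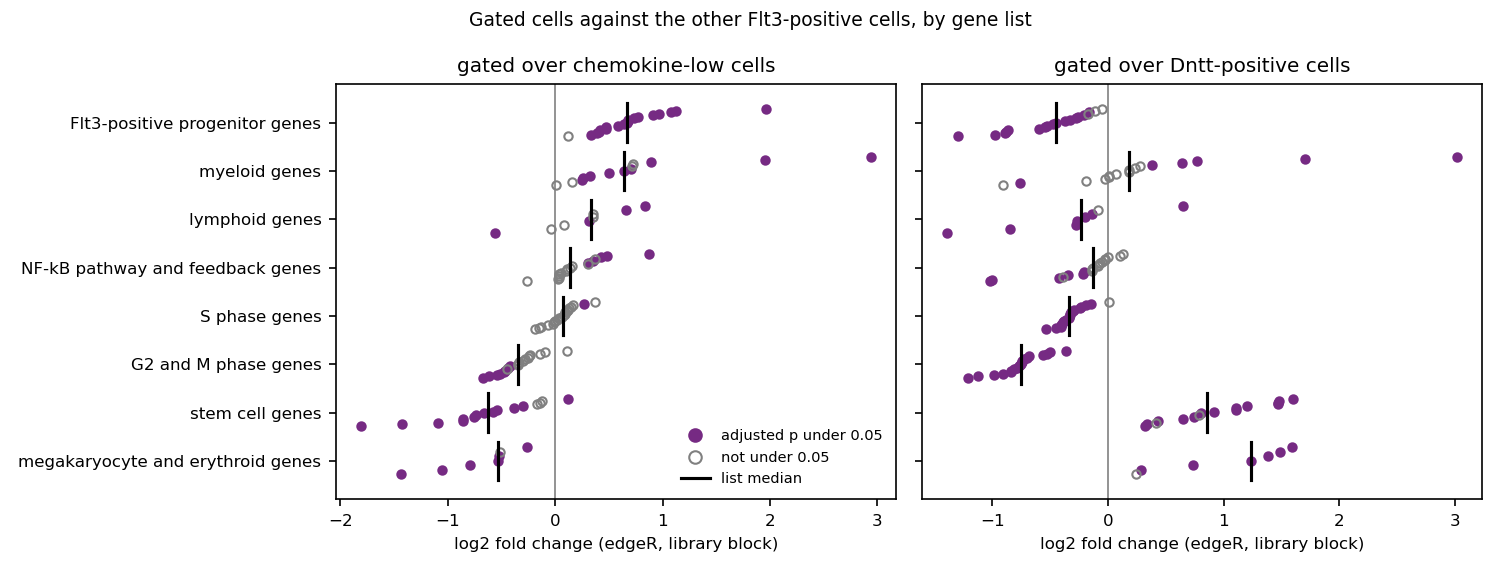
Log2 fold change of each tested member of 8 gene lists (horizontal axes) between gated and chemokine-low cells (left) and between gated and Dntt-positive cells (right), filled where the adjusted p is under 0.05, with a bar at the list median. The medians of the Flt3-positive progenitor list (0.66 and -0.45) and of the stem cell list (-0.62 and 0.86) lie on opposite sides of 0 in the 2 comparisons.

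Several of these lists and genes moved in steps with the number of the 4 genes detected, and others did not. Chemokine-low cells with 1 gene and gated cells with 2 are the cells just outside and just inside the threshold, 923 and 835 cells with median depths of 12401 and 12442 UMIs. Satb1 was at 38.2 ± 8.02 CPM with 1 gene and 56.1 ± 18.2 with 2 (SD, n = 9), Ctsg at 25.5 ± 22.7 and 101 ± 54.6, and Apoe at 221 ± 76.7 and 127 ± 71.8. From 0 genes to 4, the mean of the Flt3-positive progenitor list went from 2314 to 4372 CPM, the myeloid list from 1758 to 2908, the stem cell list from 2137 to 1490 and the megakaryocyte and erythroid list from 1045 to 465. The G2 and M phase list showed no such order, at 1900, 1914, 1522, 1533 and 1861 CPM from 0 genes to 4. Nupr1 went from 104 to 6.17 CPM and Plac8 from 348 to 1023. Flt3 itself was at 107, 117, 138, 156 and 141 CPM from 0 genes to 4. Depth moved with the number of genes, from a median of 11734 UMIs with none to 13643.5 with 4, and its part in the gradient was not tested. In 3 libraries under 20 cells held all 4 genes, and up to 3 genes the progenitor list already reached 3845 CPM and the stem cell list 1729.

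**Figure D4:**
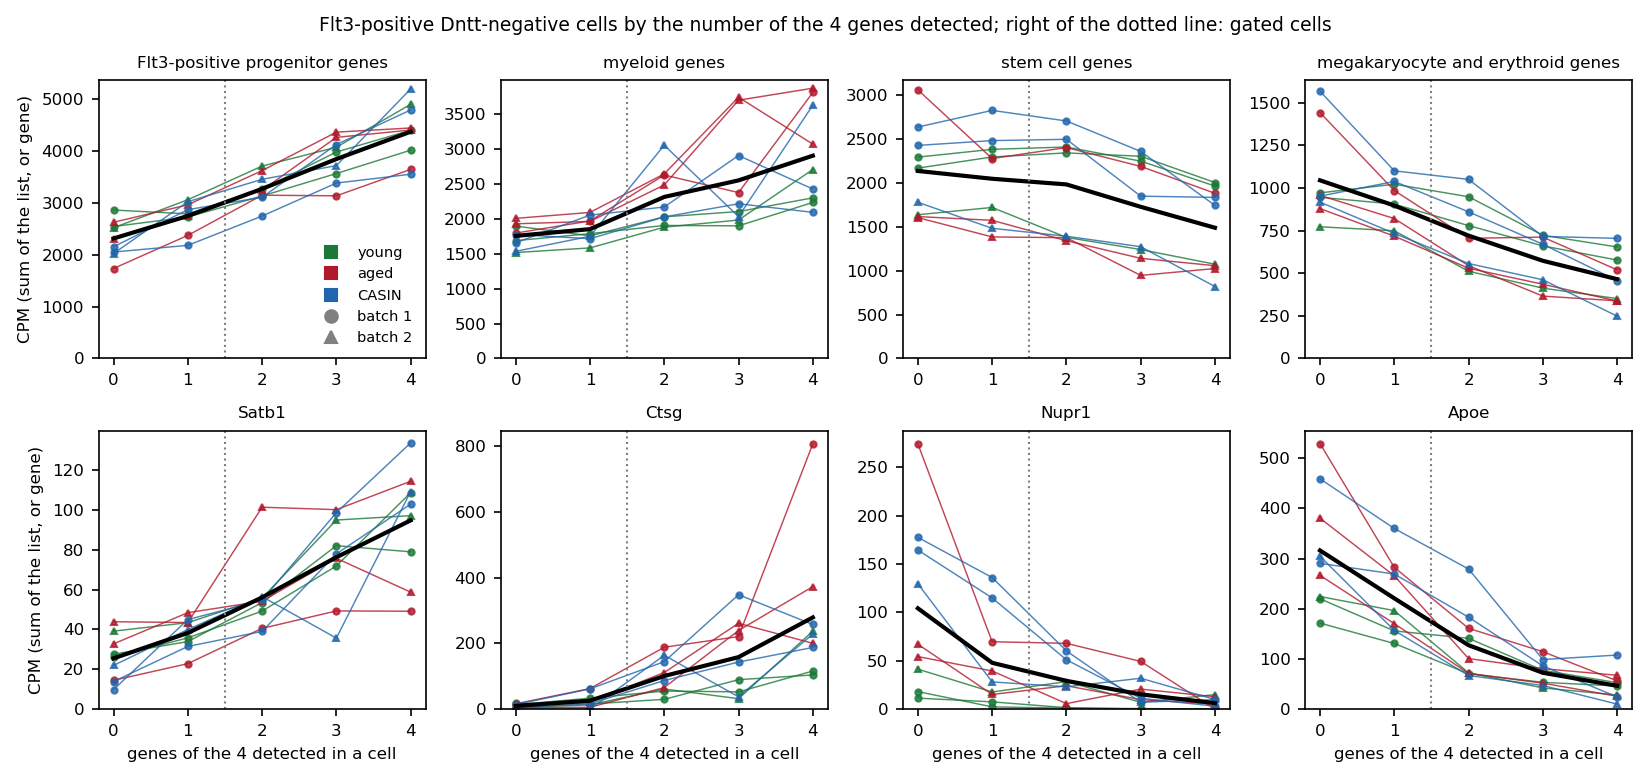
Summed level of 4 gene lists and level of 4 genes (CPM, vertical axes) in Flt3-positive Dntt-negative cells with 0 to 4 of the clustered genes detected (horizontal axes), with 1 thin line per library and a thick line for the mean. Cells right of the dotted line are gated: Apoe averaged 316 CPM in cells with none of the 4 genes and 46.4 CPM in cells with all of them.

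Compared with the Dntt-positive cells, which hold the same chemokine transcripts, the gated cells had fewer lymphoid-primed and cell cycle transcripts and more stem cell, megakaryocyte and some myeloid transcripts. Of 10469 genes tested, 1090 were higher in gated cells (10.4%) and 1195 lower (11.4%), with a median over all genes of 0.0062. Thinning to 4000 UMIs lowered the count from 2285 to 314, and DESeq2 called 1499. Dntt-positive cells had a median of 11441 to 19649 UMIs per cell, above the gated cells' 9803 to 16203.

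Flt3-positive progenitor genes were lower in 16 of 19 and higher in none (median -0.45). Il12a, a cytokine subunit gene of this program, was at 9.21 to 80.3 CPM in gated cells (median 47.5) and 29.1 to 187 in Dntt-positive cells (median 119), lower in 9 of 9 libraries by 1.30 on the log2 scale (SE 0.05, edgeR adjusted p = 4.39e-15). Satb1 had a log2 fold change of -0.86 and Notch1, the receptor that directs T cell fate, of -0.88. Of 8 lymphoid genes, 6 were lower and 1, Gata3, higher. Ighm, the immunoglobulin mu chain, was at 71.1 against 169 CPM (-1.39, SE 0.13), and Lck, a T cell kinase, at -0.85. Ccr9, a homing receptor of thymus-seeding progenitors, was lower by 1.42 on the log2 scale.

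Cell cycle genes differed throughout, with 19 of 20 S phase genes lower (median -0.33) and 20 of 20 G2 and M phase genes lower (median -0.76). Ube2c, which drives exit from mitosis, was at 25.0 to 66.4 CPM in gated cells and 72.8 to 166 in Dntt-positive cells, without overlap (-1.21, SE 0.12). Of 16 stem cell genes, 14 were higher and none lower (median 0.86). Procr, which encodes a surface marker of long-term stem cells, was at 50.3 to 114 CPM against 13.9 to 65.5 (1.11, SE 0.11), and Hlf was higher by 0.80. Megakaryocyte and erythroid genes were higher in 6 of 7 (median 1.24; Apoe 1.49, Pf4 1.59, Itga2b 1.24).

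Myeloid genes were higher in 5 of 16 and lower in 1 (median 0.18). Prtn3 was higher by 0.64 in 9 of 9 libraries, Lyz2 by 0.38 and Mpo by 0.77, the last in 7 of 9. Elane, neutrophil elastase, was higher by 3.02 (SE 0.44) but ranged from 0.75 to 160 CPM among the gated cells of the 9 libraries, and Ctsg stood at 0.23 and did not pass. NF-kB genes were lower in 6 of 19 and higher in none (median -0.13), with Tnf at -1.004 and Nfkbia at -0.42. Other chemokine and WAP genes had 1 of 7 lower (Wfdc18, -0.55, but 0.04 with thinning) and 1 higher (Ccl27a, 0.21, a call lost in 16 of 20 alternatives), and Cxcl2 at -0.28 did not pass. Innate sensing genes were higher in 7 of 22 and lower in 6, and immediate early genes higher in 7 of 24 and lower in 2. MHC class II genes were higher in 2 of 8 (Cd74, H2-Aa) and lower in 1 (H2-Ob, -0.90), the latter near the share of all genes called lower. H2-Aa lost its call in 7 of 20 alternatives, among them leaving out young 1, young 2, CASIN 1 or CASIN 2. Cdc42 partners were lower in 4 of 14, while Cdc42 itself differed by 0.0006 (SE 0.03).

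Gated cells averaged a larger share of the LSK cells in the 3 young libraries than in the aged and CASIN libraries. The share was 16.0%, 16.4% and 11.1% in the young libraries, 6.501%, 10.2% and 8.18% in the aged libraries and 10.8%, 9.71% and 4.42% in the CASIN libraries. Shares in a sorted gate are relative to the other cells in it. After thinning to 4000 UMIs, which left out 12 to 72 shallower cells per library, they were 7.02% ± 1.68, 3.60% ± 0.964 and 3.62% ± 1.61 (SD, n = 3). The aged libraries lay below the young ones without overlap, by 3.43 percentage points (-5.21 within batch 1 and -1.44 within batch 2; exact permutation test, two-sided p = 0.1, the smallest that 3 against 3 allows). CASIN and aged shares differed by 0.03 points (exact permutation test, p = 0.9), but by 1.95 within batch 1 and by -2.23 within batch 2, so the direction was opposite in the batches. CASIN shares minus young shares were -3.398 points, with within-batch values of -3.26 and -3.67, and the groups did not overlap. Wfdc17, a gene of the rule, was lower in CASIN than in young mice over all LSK cells (below). This share difference is therefore a description without a test. Thinned to 2000 UMIs the CASIN and young shares did overlap, at 0.864% to 3.30% in CASIN and 2.65% to 5.62% in young libraries. Without thinning, all Flt3-positive Dntt-negative cells together, gated or not, made up 27.8% ± 3.08 of young, 19.2% ± 4.90 of aged and 17.0% ± 2.76 of CASIN LSK cells, and with thinning to 4000 UMIs 17.8%, 12.3% and 10.997% of them. Outside the gate, at least 2 of the 4 genes were also detected less often in aged and CASIN than in young libraries. With thinning to 4000 UMIs, 18.7% ± 6.75 of young, 8.80% ± 0.349 of aged and 8.87% ± 7.73 of CASIN Procr-positive cells held them (SD, n = 3). Among Dntt-positive cells the shares were 70.0%, 66.3% and 58.7%. The part of such a change in detection in the gated shares was not tested.

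To compare the clustered genes between conditions without the rule's threshold, their levels were taken over all Flt3-positive Dntt-negative cells. No difference passed in any of the 3 comparisons, in which 1.13% of 11315 genes (aged over young), 0% (CASIN over aged) and 0.84% (CASIN over young) were called. The lowest p among them was that of Wfdc17, CASIN over young, at -0.39 (SE 0.16, 95% interval -0.71 to -0.08, edgeR adjusted p = 0.388). For Ccl3, aged over young stood at -0.28 with an interval of -0.94 to 0.37, and for Ccl4, CASIN over aged stood at -0.58 with an interval of -1.39 to 0.23, at 0.03 within batch 1 and -1.67 within batch 2. Over all LSK cells, where 3.73% of 13696 genes were called for CASIN over young, Wfdc17 was lower, at -0.90 (SE 0.21, edgeR adjusted p = 0.0499749). Aged over young stood at -0.76 (SE 0.23, edgeR adjusted p = 0.093) and CASIN over aged at -0.14 (SE 0.22), and neither passed. In such a sum over all cells, fewer cells of a type and less RNA per cell cannot be told apart.

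Within the gated cells, aged mice had higher levels of some MHC class II, myeloid and immediate early genes than young mice. Of 9882 genes, 42 were higher (0.425%) and 8 lower (0.081%) in aged cells (edgeR, batch term, all 9 libraries), the median over all genes was 0.011, and 948 had an unadjusted p under 0.05. Of the 50, 48 changed in the same direction in both batches. The count was 30 without young 1, 33 without young 3, 27 without CASIN 3, 2 with thinning and 0 without the batch term.

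MHC class II genes, which present peptides to CD4 T cells, rose in 4 of 8 tested with none lower (median 0.82). With thinning to 4000 UMIs, Cd74, H2-Aa and H2-Ab1 lost the call. H2-Aa and H2-Ab1 also lost it with at least 3 of the 4 genes, and H2-Eb1 lost it only without the batch term. Cd74, the invariant chain, was at 84.4, 71.5 and 71.2 CPM in the young libraries, 282, 269 and 245 in the aged libraries and 151, 218 and 188 in the CASIN libraries. The groups did not overlap, with aged highest and young lowest. Aged over young was 1.87 (SE 0.15, edgeR adjusted p = 2.0e-06; 1.90 within batch 1 and 1.87 within batch 2). H2-Eb1 rose by 2.02 (SE 0.25; 1.86 and 1.85 within batches 1 and 2), H2-Aa by 1.59 (1.25 and 1.74) and H2-Ab1 by 1.04 (1.06 and 0.90). The 7 B cell markers summed to 41.5, 47.6 and 4.34 CPM in the young libraries and 34.7, 8.84 and 16.1 in the aged libraries, with 2 at 0 UMIs and Cd79b the most abundant (24.7 CPM over the 9 libraries, 2.61 to 43.5). The 9 dendritic cell markers summed to 208, 190 and 136 CPM in young and 180, 212 and 198 in aged gated cells, led by Bst2 (183 CPM), with Ccr9 at 4.16, Itgax at 0.91 and Siglech at 0.07 CPM. The part of such cells in the result was not tested. Outside the gated cells, Cd74 averaged 78.8 CPM in young and 315 CPM in aged chemokine-low cells, 57.6 and 211 in Dntt-positive cells, and 112 and 277 in Procr-positive cells.

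Of 17 myeloid genes tested, 4 passed as higher and none as lower. Members with few counts in young cells entered the test through the libraries where they are high, so this count is no support for a direction of the list. Ctsg was at 58.7, 64.6 and 91.2 CPM in young, 262, 182 and 185 in aged and 122, 237 and 130 in CASIN gated cells, so young lay below both other groups. Its aged over young change was 1.65 (SE 0.23, edgeR adjusted p = 0.00167; 2.13 within batch 1 and 1.03 within batch 2). Mpo was at 85.9, 108 and 184 CPM in young, 206, 453 and 419 in aged and 102, 144 and 324 in CASIN cells. It rose by 1.16 (SE 0.15), by 1.14 within batch 1 and 1.27 within batch 2, and the lowest aged library lay above the highest young one. Nkg7, the most abundant T and NK cell marker, rose by 0.76. Ly86, a partner of Toll-like receptor signalling, also rose, from 0 to 2.4 CPM in young (12 UMIs in all) and 4.1 to 12.9 CPM in aged cells. The neutrophil markers summed to 5.7 CPM in young, 4.2 in aged and 4.6 in CASIN cells, the macrophage and monocyte markers to 283, 290.5 and 254 CPM, the T and NK cell markers to 155, 200.4 and 202 CPM and the basophil and mast cell markers to 42.8, 66.3 and 69.97 CPM. Their part in the myeloid change was not tested. The antileukoprotease Slpi, a WAP domain gene, rose by 2.43 from 0.75 to 5.2 CPM in young to 10.6 to 31.2 in aged cells. Slpi had 37 UMIs in all young gated cells together, so its fold change is imprecise. It lost the call in 4 of 21 alternatives, among them the fit of only 2 groups and leaving out young 3 or CASIN 3.

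Of 25 immediate early and handling genes, 3 rose, Nr4a2 by 1.62, Nr4a1 by 1.44 and Jund by 0.63, and the list median was 0.79. Nr4a1 was at 118, 152 and 254 CPM in young, 263, 1116 and 425 in aged and 237, 268 and 350 in CASIN cells, so the aged 2 library was far above the others, and without it the change was 0.94. Outside the gated cells, Nr4a1 averaged 147 CPM in young and 672 CPM in aged chemokine-low cells. It averaged 190 and 718 in Dntt-positive cells, and 171 and 640 in Procr-positive cells. Nr4a1 lost the call in 7 of 22 alternatives, among them DESeq2, the fit of only 2 groups, and leaving out young 1, young 3 or CASIN 3. Nr4a2 was also highest in aged 2, at 119, 401 and 150 CPM in aged and 32.9, 38.4 and 113 in young cells. It lost the call in 4 of 22 alternatives, among them thinning and the fit of only 2 groups. The NF-kB regulators Nfkbiz and Nfkbid passed at 0.95 and 0.92, 2 of 20 in their list. Id3, an inhibitor of lymphoid transcription factors, rose by 1.95 (1.74 within batch 1 and 2.75 within batch 2). Id3 averaged 18.1 CPM in young and 56.1 CPM in aged chemokine-low cells, 27.1 and 46.1 in Dntt-positive cells, and 19.5 and 80.6 in Procr-positive cells. Ptgs2, the inducible cyclooxygenase, rose by 1.79 (1.34 and 1.67) and was highest in aged 2. Its levels were 22.6, 79.2 and 33.9 CPM in aged and 8.03, 9.70 and 16.1 in young cells, and it lost the call in 6 of 22 alternatives. Of 20 listed genes known to rise in aged stem cells, 11 passed the filter on low counts. The list was chosen for that direction and some members passed the filter through the libraries where they are high, so their count and median are no support for it. The metallothionein Mt1 rose by 2.11 (2.58 within batch 1 and 1.42 within batch 2). The retinal dehydrogenase Aldh1a1 rose by 3.34, Plscr2 by 2.65 and the adhesion receptor Selp by 1.37, and Clca3a1 also passed. Aldh1a1 and Plscr2 had 19 and 26 UMIs in all young gated cells together, so their fold changes are imprecise. Clca3a1 was at most 0.43 CPM in young and 1.1 to 11.3 CPM in aged gated cells, too few counts for a fold change. Mt1 was at 7.3, 11.6 and 14.3 CPM in young, 56.6, 32.0 and 46.8 in aged and 36.8, 29.0 and 35.6 in CASIN gated cells. Mt1 and Clca3a1 were at higher levels in Procr-positive cells, where Mt1 averaged 20.3 CPM in young and 190 in aged mice and Clca3a1 4.9 and 55.9.

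Among the 8 lower genes were the immune GTPases Gimap9 (-1.29) and Gimap1 (-0.75) and the stem cell transcription factor Hlf (-0.71). Hlf was at 264, 298 and 290 CPM in young, 199, 124 and 153 in aged and 261, 310 and 189 in CASIN cells. Outside the gated cells, Hlf averaged 311 CPM in young and 211 CPM in aged chemokine-low cells. It averaged 166 and 105 in Dntt-positive cells, and 308 and 207 in Procr-positive cells. Gimap1 also differed between the batches, at 52.1 CPM in young 3 against 207 and 225 in young 1 and 2. Some of these calls rested on the settings: Nfkbid lost its call in 15 of 21 alternatives, DESeq2 among them, Jund and Hlf in 14 of 22, Ly86 in 12 of 20, Selp in 11 of 21, Nfkbiz and Gimap1 in 9 of 22, and Nkg7 in 7 of 22. None of the 19 Flt3-positive progenitor genes (median -0.03), 20 S phase genes, 20 G2 and M phase genes, 10 MHC class I genes, 16 interferon response genes, 22 innate sensing genes, 16 cytokine feedback genes, 8 lymphoid genes, 7 megakaryocyte and erythroid genes or 2 chemokine receptors passed in this comparison.

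**Figure D5:**
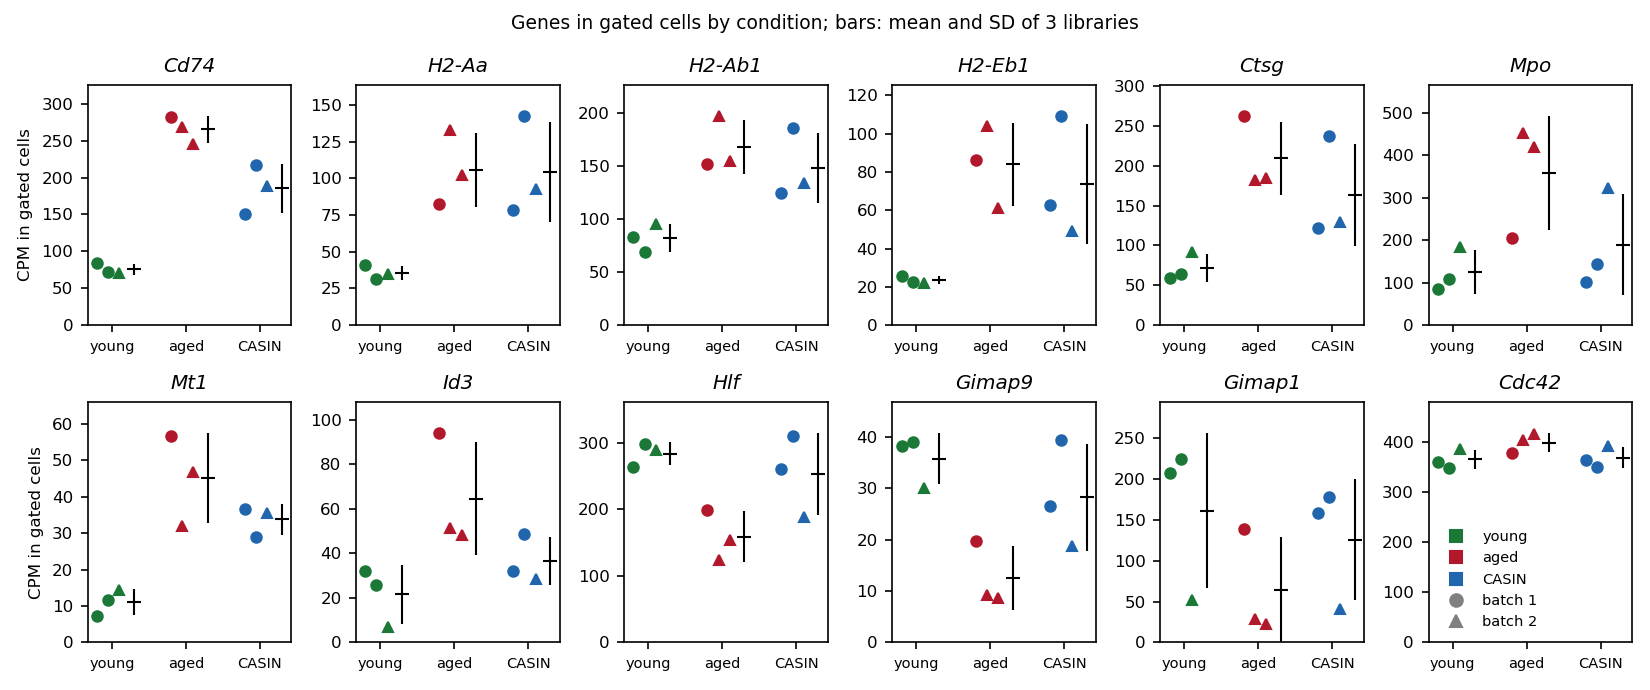
Level (CPM, vertical axes) of 12 genes in the summed gated cells of each library, with colour for the group, shape for the batch, and the mean and SD of 3 libraries beside the points; the lower SD bar of aged Gimap1 is cut at 0. The 3 young libraries lie below the 6 others for Cd74 (71.2 to 84.4 against 151 to 282 CPM) and Ctsg, and Cdc42 lies between 349 and 414 CPM in all 9.

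No gene passed the threshold between CASIN and aged gated cells. Of 9882 genes, 0 passed in edgeR (0%) and 0 in DESeq2, 710 had an unadjusted p under 0.05, and the lowest adjusted p was 0.354, that of Id3. Leaving out aged 1 gave 4 genes, leaving out aged 2 gave 1, and dropping the filter on low counts gave 69. Genes called for aged over young stood on either side of the aged level. For CASIN over aged, Cd74 was at -0.56 (SE 0.14; -0.68 within batch 1 and -0.46 within batch 2), Mpo at -0.63 (-0.80 and -0.44), Id3 at -1.18 (-1.27 and -0.79), Hlf at 0.54 (0.47 and 0.44) and Gimap9 at 0.97 (0.65 and 1.003). H2-Aa was at -0.03 (0.31 and -0.34), Aldh1a1 at 0.09 (0.25 and 0.23) and Plscr2 at 0.19 (-0.003 and 0.09). None of these passed, and both comparisons share the aged libraries. The median of the MHC class II list was -0.11 and that of the immediate early and handling list was -0.30, with no member passing. Cdc42, whose protein CASIN inhibits, was at 359, 349 and 387 CPM in young, 378, 403 and 414 in aged and 364, 349 and 392 in CASIN gated cells. Its log2 differences were 0.13 for aged over young, -0.10 for CASIN over aged and 0.03 for CASIN over young, with standard errors of about 0.10, and did not pass. None of the 14 genes of the Cdc42 list passed in any of these comparisons.

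Between CASIN and young gated cells, 21 of 9882 genes were higher in CASIN cells (0.213%) and 3 lower (0.0304%). The median over all genes was 0.0015, and 743 genes had an unadjusted p under 0.05. Of the 24, 22 had the same direction in both batches. This comparison shares the young libraries with the one above. The count was 12 without young 1, 40 without aged 2, 11 without CASIN 2, 6 with thinning and 0 without the batch term. MHC class II genes rose in 4 of 8 (median 0.61), with H2-Eb1 at 1.67 (SE 0.23; 1.76 within batch 1 and 1.149 within batch 2), H2-Aa at 1.56 (1.56 and 1.39), Cd74 at 1.31 (SE 0.14; 1.23 and 1.41) and H2-Ab1 at 0.88 (1.02 and 0.51). Of 17 myeloid genes, 3 passed: Elane at 4.41 (1.92 within batch 1 and 5.42 within batch 2), Ms4a3 at 2.97 (2.06 and 3.42) and Ctsg at 1.23 (1.47 and 0.53). Elane and Ms4a3 had 25 and 23 UMIs in all young gated cells together, so they too entered the test through the libraries where they are high, and their fold changes are imprecise. Elane was at 1.5, 34.2 and 160 CPM in the CASIN libraries and 0.7 to 3.0 in the young ones, and its change was 3.07 without CASIN 3. Gated cells of the aged libraries, which received vehicle only, held 24.8, 23.9 and 14.5 CPM of Elane. They held 16.3, 6.6 and 2.7 CPM of Ms4a3, against 7.1, 15.5 and 21.2 in the CASIN libraries. Elane, Ms4a3 and Ctsg each lost the call without CASIN 2 and also without CASIN 3, and Elane lost it in 9 of 20 and Ctsg in 10 of 22 alternatives, DESeq2 among them. Of the genes that rise in aged stem cells, Mt1 was higher by 1.70 (1.76 and 1.29 within the batches) and Selp by 1.49 (2.03 and 0.55). Selp lost the call in 6 of 21 alternatives, among them leaving out young 1, young 2, CASIN 1 or CASIN 2. The stem cell gene Sult1a1 passed at 2.50, at 20.4, 12.4 and 1.2 CPM in CASIN and 0.4 to 4.1 CPM in young gated cells. With 28 UMIs in all young gated cells together, its fold change is imprecise too. Sult1a1 lost the call without young 1, CASIN 1 or CASIN 2. P4hb, a protein folding enzyme, passed at 0.65 but lost the call in 15 of 22 alternatives, and Gm10076 had a log2 fold change of -0.73. Gm10076 lost the call in 6 of 22 alternatives, among them thinning and leaving out young 2, CASIN 2 or CASIN 3. None of the 19 Flt3-positive progenitor genes (median -0.03) or 25 immediate early genes (median 0.42) passed.

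Whether conditions acted alike on gated and chemokine-low cells was tested as an interaction with a library block. For aged over young, 5 of 10810 genes passed (0.0463%), for CASIN over aged 0 (0%) and for CASIN over young 6 (0.0555%). Mpo passed in 2 of them: it averaged 126, 359 and 190 CPM in young, aged and CASIN gated cells and 56.9, 65.7 and 37.6 in chemokine-low cells, an aged over young change larger by 1.10 in gated cells (SE 0.21, edgeR adjusted p = 0.0379). Plac8 averaged 675, 721 and 722 CPM in gated and 475, 343 and 355 in chemokine-low cells, a CASIN over young difference of 0.57 (SE 0.10, edgeR adjusted p = 0.00425). The first count was 1 without young 1 or aged 1, 0 without young 2, 11 without young 3, 8 without CASIN 2 and 2 without CASIN 3. The last was 3 without young 1, 12 without young 3, and 13 without aged 1 or aged 2. With thinning the counts were 0, 2 and 1.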

How the data were processed

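LSK cells from 9 libraries were captured with a 10x 3′ kit. The authors made the deposited counts (whole UMI counts per gene and barcode, not normalized) with Cell Ranger 3.1.0 on GRCm38 (mm10) with Ensembl 93 genes, without pooling libraries. The files hold 31053 genes. Antibody tags were not analysed here.

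Gated cells were summed per library. Conditions were compared in those sums with edgeR 4.0.16 (TMM, filterByExpr, quasi-likelihood test, batch term, all 9 libraries, Benjamini-Hochberg threshold 0.05), and sets of cells with a library block. DESeq2 1.42.0 was an alternative, run on the same counts. CPM are sums scaled to library totals, and within-batch values are differences of log2 CPM with a prior count of 2. Aged shares were compared with young and with CASIN shares by exact permutation after thinning cells to 4000 UMIs (seed 11). Intervals of shares cover counting error only. The scripts were tested on simulated data. Gene positions came from the GENCODE annotation of GRCm38 and promoter windows from RefSeq.

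The text names, for each comparison of conditions, up to 10 genes per direction of largest change among those past the threshold with a mean of at least 20 CPM and 1 direction in both batches (12 per direction, with 1 direction in all libraries, between sets of cells), and up to 4 members of each of 18 lists and 9 lists of other cell types. Members and lists were chosen with earlier results of these data known. Alternatives changed the test, normalization, low-count filter, batch term, block, groups fitted, doublets, mitochondrial limit, gate, depth and libraries. A few genes that these rules select are not reported here.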

Additional observations from a re-analysis of the deposited data

Results flagged for a closer look

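The differences below are between log2 fold changes in gated and in chemokine-low cells, each tested as an interaction in edgeR (adjusted over 10810 genes). For aged over young, Hist1h1b, a linker histone of dividing cells, differed by 0.84 (edgeR adjusted p = 0.0165): it averaged 116, 76.2 and 113 CPM in young, aged and CASIN gated cells and 205, 72.0 and 123 CPM in chemokine-low cells. Btg2, an antiproliferative gene, differed by -0.65 (edgeR adjusted p = 0.0227), with 139 and 148 CPM in young and aged gated cells and 104 and 181 in chemokine-low cells. Tnip3, an inhibitor of NF-kB signalling, differed by -0.85 (edgeR adjusted p = 0.0227). It stood at 23.3 to 44.6 CPM in the gated cells of batch 1 and 128 to 315 CPM in those of batch 2. Spp1 (osteopontin) differed by 1.85 (edgeR adjusted p = 0.0383), at 6.73, 12.3 and 31.3 CPM in young and 14.1, 24.3 and 44.7 in aged gated cells, with young 3 at 59.7 CPM in chemokine-low cells. Mpo differed by 1.10 for aged over young and by 1.29 for CASIN over young.

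For CASIN over young, Plac8 differed by 0.57, Hist1h1b by 0.70 (edgeR adjusted p = 0.00425), Klf2, a quiescence factor, by -0.65 and Id1 by -2.05. Klf2 stood at 246 to 283 CPM in the gated cells of batch 1 and at 21.7 to 62.2 CPM in those of batch 2. Id1, a target of BMP signalling, was at 72.3 CPM in the chemokine-low cells of CASIN 1, against 18.4 and 10.9 in the other CASIN libraries. Ly6c2, a monocyte surface gene, differed by 5.21 in the fit, but 2 of the 3 young libraries held none in gated cells and young 2 held 25.8 CPM in chemokine-low cells, so this value depends on the prior count. In gated cells Ly6c2 was at 4.6, 11.9 and 29.4 CPM in the CASIN libraries.

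The share of gated cells after thinning was higher in CASIN than in aged libraries by 1.95 percentage points in batch 1 and lower by 2.23 points in batch 2, with CASIN 1 and 2 above aged 1, and CASIN 3 below aged 2 and 3. This difference between batches was not tested.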

How the results depend on the processing

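Aged over young in gated cells (50) became 243 without a low-count filter, 0 without the batch term, 13 with only the 2 groups fitted, 22 at a mitochondrial limit of 5%, 11 with at least 3 of the 4 genes and 2 with cells thinned to 4000 UMIs, and 27 to 73 leaving out 1 library. CASIN over aged (0) became 69 without the filter and 1 without shared barcodes, an alternative chosen after seeing the data, and 0 to 4 leaving out 1 library. CASIN over young (24) became 144 without the filter, 0 without the batch term, 7 with at least 3 genes and 6 with thinning, and 11 to 40 leaving out 1 library. Gated over chemokine-low cells (935) became 546 with DESeq2, 478 without the library block, 619 with the mitochondrial limit of 5%, and 150 with thinning (733 to 959 leaving out 1 library), and gated over Dntt-positive cells (2285) became 1499 with DESeq2, 1034 without the library block, 837 with at least 3 genes and 314 with thinning (1742 to 2271). Interactions (5, 0 and 6) became 17, 11 and 37 without the filter and 0, 2 and 1 with thinning, with 0 to 11, 0 to 2 and 3 to 13 leaving out 1 library. Of the 4 gate genes over all Flt3-positive Dntt-negative cells (none called), 1 was called without the filter for CASIN over aged, 2 without it for CASIN over young, and 0 to 1 leaving out 1 library for CASIN over young. The cause was not tested.

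Some directions reversed on the log2 scale. Wfdc18 in gated over Dntt-positive cells went to 0.0393 with thinning and Cd83 to 0.106 in DESeq2. Cdc42, CASIN over young, went to -0.0287 with thinning. Over all Flt3-positive Dntt-negative cells, aged over young, Ccl4 went to -0.0336 with 2 groups and -0.0705 with the 5% limit, and Ccl9 to -0.152 with thinning. For CASIN over aged, Ccl3 went to 0.527 without the batch term and 0.0584 with the 5% limit, and without the batch term Ccl9 went to -0.0577 and Wfdc17 to 0.122. Leaving out 1 library put Ccl3 at -0.531 to 0.0495 for aged over young, -0.610 to 0.442 for CASIN over aged and -0.976 to 0.0160 for CASIN over young. Ccl4 was then at -0.0361 to 0.592, -1.32 to 0.106 and -1.29 to 0.0700, and Ccl9 at -0.149 to 0.475 for CASIN over aged. The share ranged over -4.16 to -2.51 points for aged over young, -0.70 to 0.89 for CASIN over aged (-0.50 without aged 1, -0.10 without CASIN 1, -0.70 without CASIN 2) and -4.13 to -2.48 for CASIN over young.

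Of 1397 values of 72 named genes in the chemokine-low comparison, 1319 kept their direction and side of the threshold and 78 lost the call, and of 1560 of 80 genes in the Dntt-positive comparison, 1472 kept both, 86 lost the call and 2 reversed. For aged over young 155 of 558 values (26 genes) lost the call, and for CASIN over young 71 of 336 (16 genes) did and 1 reversed. Replicate numbers did not pair the samples: same-numbered libraries correlated from -0.699 (young 2 and aged 2) to 0.909, following the batch. A replicate block gave 63 genes for aged over young, 0 for CASIN over aged and 49 for CASIN over young. It called 1 gate gene in the last of these, and put Wfdc17, aged over young, at 0.00103 and Ccl9, CASIN over aged, at -0.110.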
